A study of Rattus norvegicus with 20 samples.

Results

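Gene expression was compared between mesenchymal stromal cells (MSCs) grown for 5 weeks on a soft surface (5w2) and MSCs grown for 5 weeks on a stiff surface (5w100). The 4 libraries were taken by their labels, 2 for 5w2 and 2 for 5w100, out of 20 libraries in the series. The other 16 were 3 libraries each of MSCs grown for 1 week (1w2, 1w100) or 3 weeks (3w2, 3w100) on the same surfaces, and 2 each of MSCs switched after 3 weeks to the other surface for 2 more weeks (3w2→2w100, 3w100→2w2). They are used here only where they show how the 5-week difference stood beside earlier or switched cultures.

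All cells came from the bone marrow of female Wistar rats, whose age is not given in the sources used here. The labels name no genetic change and no drug in any group. The MSCs of 1 batch came from a single rat. After a first expansion on the respective soft or stiff surface, they were selected with beads for CD54 and CD90. They grew in α-MEM with 10% fetal bovine serum on gelatin-coated silicone elastomers with an elastic modulus of 2 kPa (soft) or 100 kPa (stiff), and every week they were lifted with trypsin and passaged. The only difference between 5w2 and 5w100 in the labels is the surface. The paper also adjusted seeding densities to offset differences in growth between the surfaces, which it describes as not significant. The labels number the libraries of each group as replicates without tying a number to a rat. The paper counts the 5-week libraries as 2 biological replicates a side and describes biological replicates as MSCs from different rats. With 2 libraries a side, the test took its estimate of spread from all 20 libraries, so p-values measure the spread between libraries of all 8 groups, which may be partly technical.

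MSCs sense the stiffness of the surface through integrin adhesions and the tension that their actomyosin fibers can build against it. On stiff surfaces they can turn into myofibroblasts (MFs), contractile cells that carry α-smooth muscle actin in stress fibers and lay down collagen-rich matrix in scars. Soft surfaces are known to hold this activation back, and the 5-week cultures served the study as its continuously soft and continuously stiff controls.

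The table names genes by Ensembl identifier only, and no table used here pairs these with symbols. The MSC label was therefore not checked against marker genes, MF and matrix genes are not listed by name, and results are given for groups of genes and for 4 identifiers. In bulk RNA, fewer cells of a kind and less RNA per cell cannot be told apart.

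The 5w2 libraries held 24103082 and 21907805 counts and the 5w100 libraries 18843735 and 18590110, within the range of the other 16 libraries (16127907 to 24139128). Between 12511 and 12771 genes had at least 10 counts in each of the 4, and the 10 most abundant genes took 13.9% to 17.2% of the counts. Replicates of 5w100 differed from each other by more than any replicates of the earlier groups, and those of 5w2 by about as much as the most different of them. The SD across genes of the log2 difference between replicates was 0.668 in 5w2 and 0.779 in 5w100, against 0.455 to 0.678 in the 1-week groups and 0.457 to 0.682 in the 3-week groups. Over 2-fold differences between replicates were seen for 1317 genes in 5w2 and 1866 genes in 5w100.

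After 5 weeks, 37 of 14034 tested genes differed between the surfaces (0.264%) at an adjusted p below 0.05 in edgeR. Of these, 31 were higher in 5w100 (0.221% of tested genes) and 6 were higher in 5w2 (0.0428%). The 31 genes higher in 5w100 had a median fold change of 5.91, and the 6 genes higher in 5w2 had a median fold change of 2.35. Among the 31, 28 differed by over 2-fold, 24 by over 4-fold and 11 by over 8-fold, and among the 6, 4 differed by over 2-fold and 1 by over 4-fold. For comparison, 12.3% of all tested genes differed by over 2-fold in the same fit, with a median size of 0.22 on the log2 scale.

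Same-numbered 5-week libraries deviated together, though between 5w2 and 5w100 only weakly (r = 0.178 across genes for the replicate differences). Adding the replicate number as a block for this reason raised the number to 498 genes (3.55%). Of the 498, 364 were higher in 5w100 (2.59%) and 134 higher in 5w2 (0.955%). All 37 genes were among the 498. This block spans all 20 libraries, and on the 8 five-week libraries, where the pairing was measured, it gave 290 genes, 190 higher in 5w100 and 100 higher in 5w2. The 364 genes had a median log2 difference of 1.67 in size and the 134 genes one of 0.99. In the fit without the block, 0 genes remained after leaving out 5w2 replicate 1, 5w2 replicate 2 or 5w100 replicate 2 (1588, 1661 and 989 genes at an unadjusted p below 0.05), while 313 were called after leaving out 5w100 replicate 1. The call also rested on the other groups. On only 5w2 and 5w100 edgeR called 0 of 12726 genes (1134 at an unadjusted p below 0.05), and on the 8 five-week libraries 0 of 13112 (1405). DESeq2, run without a filter on low counts before the fit, called 273 of 17933 genes with a p-value on only 5w2 and 5w100. Over all 8 groups it called 592 of 20527. The genes tested thus differed between these fits, along with the test.

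**Figure D1:**
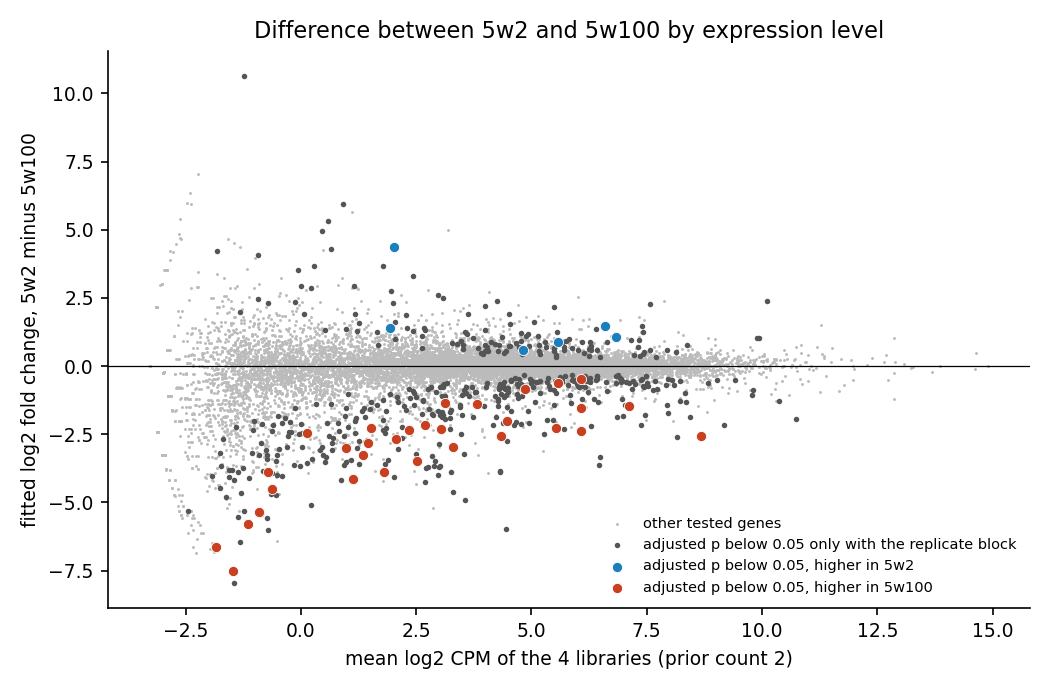
Fitted log2 fold change of every tested gene (5w2 minus 5w100, vertical axis) against its mean level in the 4 libraries (horizontal axis, log2 CPM, where CPM are counts scaled to the library total). The 31 genes called higher in 5w100 (red) lie below 0, and the 6 called higher in 5w2 (blue) lie above it. Genes called only with the replicate block are dark grey.

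Genes called on the stiff side covered low and high levels of expression. Their mean over the 4 libraries ran from 0.321 to 589 CPM with a median of 8.67 CPM, and 4 of the 31 lay under 1 CPM. The 6 genes of the soft side ran from 4.18 to 122 CPM. Over all tested genes the median was 17.7 CPM. By level, 4 of 2048 genes under 1 CPM, 15 of 3458 genes from 1 to 10 CPM and 18 of 8528 genes over 10 CPM were called, and with the block 46, 151 and 301. The spread between replicates was wider at low levels, with an SD of the log2 difference in 5w100 of 1.07 under 1 CPM, 1.01 from 1 to 10 CPM and 0.527 over 10 CPM.

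In the 5w2 libraries the 31 stiff-side genes summed to 539.96 and 494.7 CPM, and in the 5w100 libraries to 1824 and 2365 CPM. Both 5w100 libraries were above both 5w2 libraries, and 5w100 replicate 2 was the highest. The 6 soft-side genes summed to 433 and 464 CPM in 5w2 and to 203 and 192 CPM in 5w100, again without overlap. The libraries of the 2 groups did not overlap for any of the 37 genes, which the call itself favours. For 2 of the 31 genes no count was found in either 5w2 library, against 10 to 25 counts in the 5w100 libraries. No gene was without counts in both 5w100 libraries and at 10 or more counts in both 5w2 libraries.

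**Figure D2:**
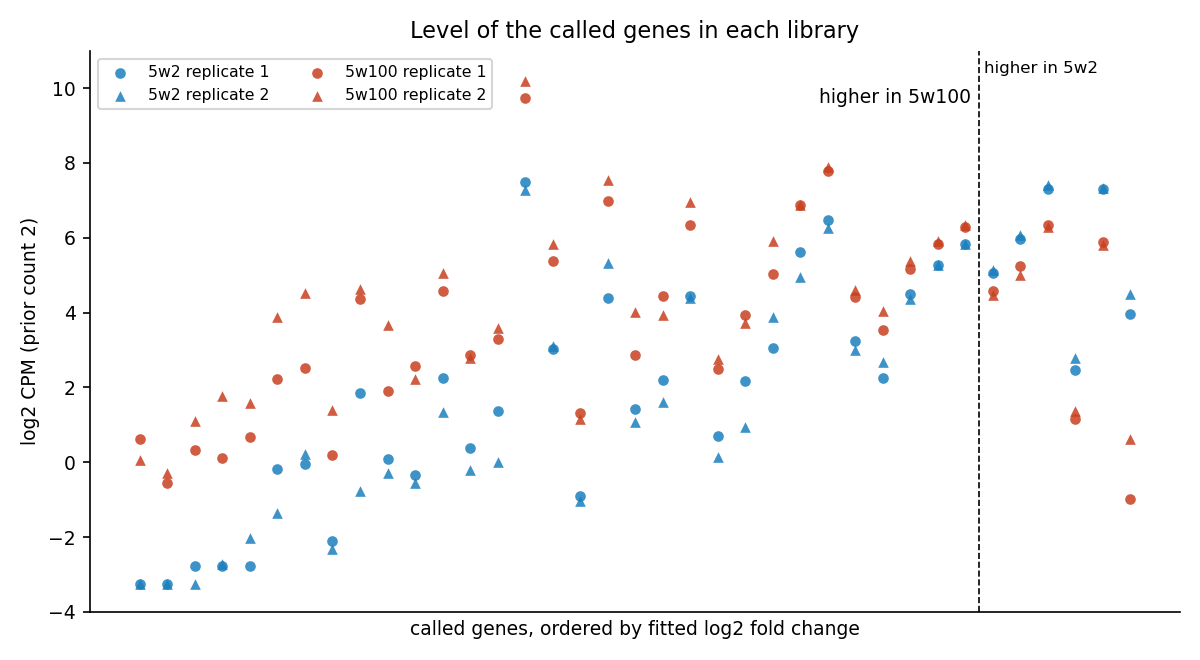
Level of each of the 37 called genes (log2 CPM with a prior count of 2, vertical axis) in the 2 libraries of 5w2 (blue) and the 2 of 5w100 (red), with genes ordered by fitted log2 fold change along the horizontal axis. All red points lie above the blue ones for the 31 genes left of the dashed line and below them for the 6 genes right of it.

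Beyond the called genes, the stiff side held more of the large differences, although about as many genes were separated in each direction. The libraries of 5w2 and 5w100 did not overlap for 3014 genes higher in 5w100 (21.5%) and for 3033 genes higher in 5w2 (21.6%). With 2 libraries a side this can occur often without a surface difference, and more often than with 3 a side. When a difference of over 2-fold was also asked for, 832 genes were higher in 5w100 (5.93%) and 420 higher in 5w2 (2.99%). Over 4-fold, the counts were 297 and 71, and over 8-fold 81 and 20. These are counts without a test, on log2 CPM with a prior count of 2. On this scale, and with overlap allowed, 984 genes (7.01%) were over 2-fold higher in 5w100 and 539 (3.84%) in 5w2.

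The difference was next read in each pair of same-numbered libraries, so that genes chosen in one pair could be followed in libraries that had no part in the choice. In replicates 1, 844 genes were over 2-fold higher in 5w100. Of these, 675 (80.0%) were also higher in 5w100 in replicates 2 and 491 (58.2%) by over 2-fold, against 10.0% of all genes, and 53 were over 2-fold higher in 5w2 instead. Of 478 genes over 2-fold higher in 5w2 in replicates 1, 296 (61.9%) were higher in 5w2 in replicates 2, 166 (34.7%) were so by over 2-fold, against 6.33% of all genes, and 75 were over 2-fold in the opposite direction. The shares were lower when genes were chosen in replicates 2 and read in replicates 1, where 491 of 1410 genes on the stiff side (34.8%, against 6.01% of all genes) and 166 of 888 on the soft side (18.7%, against 3.41% of all genes) were over 2-fold the same way. Whether the share on the stiff side differs from that on the soft side was not tested.

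The pairs differed in the width of the difference. Across genes the log2 difference between the surfaces had an SD of 0.614 in replicates 1 and of 1.01 in replicates 2. Across the 14034 genes the 2 pairs had r = 0.429, which describes these 4 libraries, since genes are not independent replicates. With the numbers crossed, r was 0.227, with 464 genes over 2-fold higher in 5w100 in both pairs, 119 in 5w2 and 287 in opposite directions, against 491, 166 and 128 with the numbers as labelled. Of the genes over 2-fold higher in 5w2 in one crossed pair (1077 and 538 genes), 119 were over 2-fold the same way in the other pair and 143 and 144 the opposite way, while on the stiff side 30.5% and 47.8% were over 2-fold the same way. Of the 31 genes called higher in 5w100, 27 differed more in replicates 2, with a median log2 CPM difference of 2.78 against 2.24 in replicates 1, and 28 were over 2-fold in both pairs. Of the 6 genes called higher in 5w2, 5 differed more in replicates 2, with medians of 1.28 and 1.14. In 3 of the 6 the difference was over 2-fold in both pairs. Both sets of genes were called on all 4 libraries, so agreement between the pairs was favoured by the choice.

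**Figure D3:**
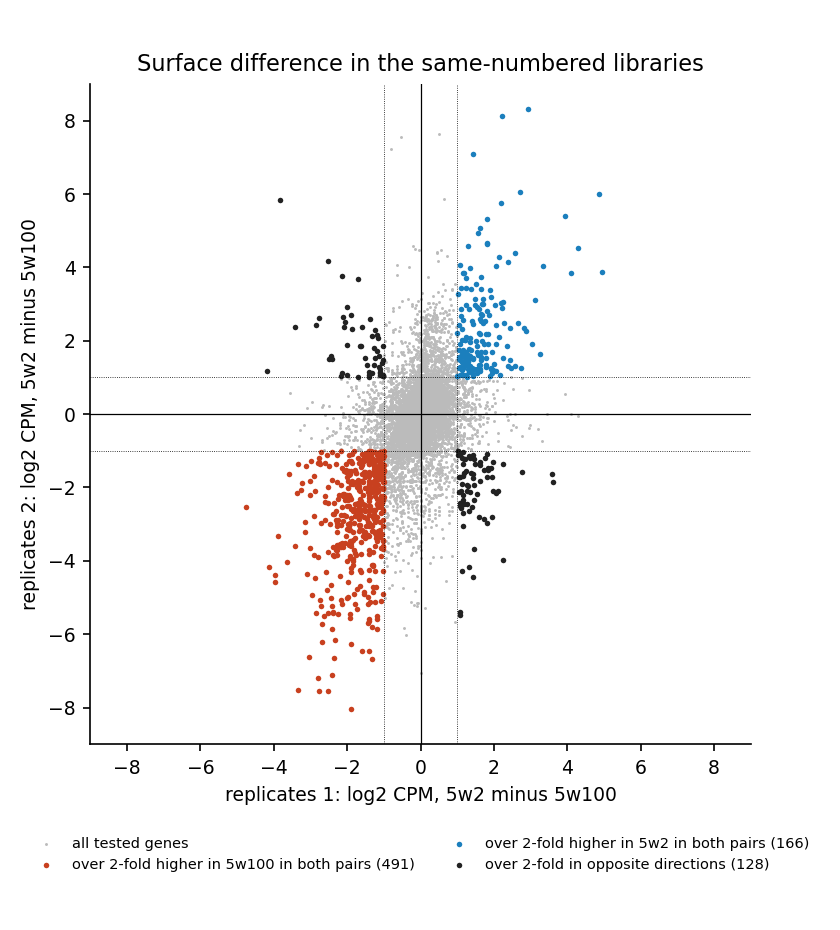
Difference of log2 CPM between 5w2 and 5w100 in replicates 1 (horizontal axis) and replicates 2 (vertical axis) for all 14034 tested genes. In both pairs 491 genes were over 2-fold higher in 5w100 (red) and 166 over 2-fold higher in 5w2 (blue), while 128 were over 2-fold in opposite directions (black), and the points spread farther along the vertical axis.

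To see when these differences arose, the called genes were followed from 1 week onward. The genes were chosen for their difference at 5 weeks, so their course is a description. On the soft surface the 31 stiff-side genes had a median change of -1.98 on the log2 CPM scale from 1w2 to 5w2 and of -0.42 from 1w2 to 3w2. The 3w2 libraries differed, with medians of -0.45, -0.85 and 0.10 from the 1-week mean in replicates 1, 2 and 3. Replicate 3, which did not fall, has no 5-week library of its number. On the stiff surface the median change was 0.46 from 1w100 to 5w100 and 0.36 from 1w100 to 3w100. The largest of these medians was that from 1w2 to 5w2. Over all tested genes the medians of the same contrasts lay between -0.015 and 0.00076.

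Gene by gene, 15 of the 31 were over 2-fold lower in 5w2 than in 1w2 while staying within 2-fold on the stiff surface, a course shown by 3.94% of all tested genes. Another 6 were over 2-fold higher in 5w100 than in 1w100 while staying within 2-fold on the soft surface (2.64% of all tested genes). In 4 genes both occurred, 1 gene was over 2-fold higher on both surfaces, and 5 stayed within 2-fold on both. Mean levels went down from 1w2 to 3w2 to 5w2 in 20 of the 31 genes (25.5% of all genes) and up from 1w100 to 3w100 to 5w100 in 17 (28.6% of all genes). The median of the group means was 9.86 CPM in 1w2, 5.55 CPM in 3w2 and 2.30 CPM in 5w2, and 10.7 CPM in 1w100, 10.8 CPM in 3w100 and 14.2 CPM in 5w100.

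The 6 soft-side genes took the mirrored course. From 1 to 5 weeks their median change was 0.28 on the soft surface and -0.89 on the stiff surface, and from 1 to 3 weeks it was 0.14 and -0.53. The 3w2 libraries again differed, with medians of 0.13, 0.39 and -0.12 from the 1-week mean in replicates 1, 2 and 3. Over the period, 2 of the 6 were over 2-fold lower on the stiff surface only, 1 was also over 2-fold higher on the soft surface, and 3 stayed within 2-fold on both. In 5 of the 6 the mean level went down from 1w100 to 3w100 to 5w100, as it did in 31.3% of all genes.

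With the replicate block the larger groups of genes were more evenly split. Of the 364 genes higher in 5w100, 110 were over 2-fold lower on the soft surface only, 67 over 2-fold higher on the stiff surface only, 17 did both and 129 stayed within 2-fold on both surfaces. Their median change from 1 to 5 weeks was -0.65 on the soft and 0.41 on the stiff surface. Of the 134 genes higher in 5w2, 24 were over 2-fold higher on the soft surface only and 24 over 2-fold lower on the stiff surface only, with median changes of 0.31 and -0.44.

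**Figure D4:**
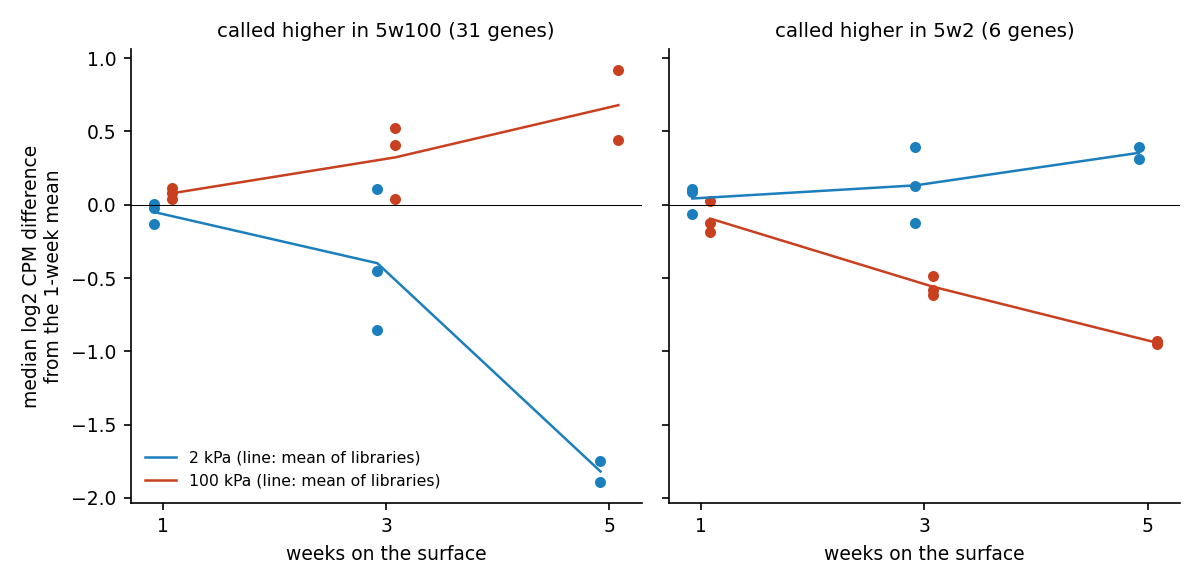
Median over the called genes of the log2 CPM difference from the mean of the 6 libraries of 1 week (vertical axis) in each library (points) after 1, 3 and 5 weeks (horizontal axis) on 2 kPa (blue) or 100 kPa (red), with lines through the group means. For the 31 genes higher in 5w100 (left) the points of 5w2 are -1.75 and -1.89 and those of 5w100 are 0.44 and 0.92. For the 6 genes higher in 5w2 (right) they are 0.31 and 0.40 in 5w2 and -0.93 and -0.95 in 5w100.

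The same genes were then set beside the other soft against stiff comparisons. These use other libraries, but those libraries entered the estimate of spread behind the call. Genes whose replicates lay close to each other there were therefore favoured by the choice, and so was a lack of overlap. After 3 weeks all 31 stiff-side genes were higher in 3w100 in their means, with a median log2 CPM difference of 0.86, and in 16 of them the libraries did not overlap (7.78% of all genes in that direction). All 6 soft-side genes were higher in 3w2, with a median of 0.44, and 4 were without overlap (6.72% of all genes). After 1 week the differences were small. Of the 31 genes, 23 were higher in 1w100 with a median of 0.085 over the 31, and 2 were without overlap in that direction (1.86% of all genes) and 1 in the other. All 6 soft-side genes were higher in 1w2 with a median of 0.11, 0 of them without overlap (1.90% of all genes). The difference grew from 1 to 3 to 5 weeks in 30 of the 31 genes and in 6 of the 6, in genes that were chosen for a large difference at 5 weeks.

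Genes chosen in the 3-week libraries alone are free of that choice, but their 3-week differences can be enlarged by the choice at 3 weeks. The labels do not say whether 3-week and 5-week libraries share rats. At 3 weeks, 155 genes were over 2-fold higher in 3w100 without overlap and 77 were so in 3w2. Of the 155, 146 (94.2%) were higher in 5w100 too, 118 (76.1%) by over 2-fold (7.01% of all genes), and 109 (70.3%) without overlap between the 5-week libraries (21.5% of all genes). Their median log2 CPM difference was 1.27 at 3 weeks and 1.77 at 5 weeks, and 101 of the 155 differed more at 5 weeks. Of the 77, 72 (93.5%) were higher in 5w2, 45 (58.4%) by over 2-fold (3.84% of all genes), and 41 (53.2%) without overlap (21.6% of all genes). Their median was 1.44 at 3 weeks and 1.17 at 5 weeks, and 28 of the 77 differed more at 5 weeks. At 5 weeks the edgeR test called 6 of the 155 (0.221% of all genes) and 2 of the 77 (0.0428%), and the fit with the block 44 (2.59%) and 16 (0.955%).

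Genes chosen at 1 week were few. There were 14 over 2-fold higher in 1w100 without overlap and 16 over 2-fold higher in 1w2. After 5 weeks, 9 of the 14 were higher in 5w100, 4 by over 2-fold (7.01% of all genes), and 12 of the 16 were higher in 5w2, 9 by over 2-fold (3.84%). The edgeR test called 0 of the 14 (0.221% of all genes) and 0 of the 16 (0.0428%) at 5 weeks, and with the block 1 (2.59%) and 3 (0.955%) were called.

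The change of the surface difference between time points was also tested directly. No gene passed an adjusted p of 0.05 for a change from 3 to 5 weeks or from 1 to 5 weeks in edgeR, with 404 and 983 genes at an unadjusted p below 0.05. DESeq2 called 0 genes for the change from 3 weeks and 36 for the change from 1 week, and edgeR with the block called 0 and 1. A p that misses the threshold does not show that the difference stayed the same.

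In switched MSCs the genes were ordered by the first surface. All 31 were higher in 3w100→2w2 than in 3w2→2w100, with a median log2 CPM difference of 2.04, and all 31 were without overlap (20.7% of all genes in that direction). All 6 soft-side genes were higher in 3w2→2w100, with a median of 1.02, and 5 were without overlap (17.8% of all genes). The median of the group means of the 31 genes was 2.03 CPM in 3w2→2w100, beside 2.30 CPM in 5w2, and 14.1 CPM in 3w100→2w2, beside 14.2 CPM in 5w100. Of the 364 genes called with the block, 364 were higher in 3w100→2w2, 346 of them without overlap, and of the 134 genes 132 were higher in 3w2→2w100, 120 of them without overlap. These libraries are not independent of the 5-week ones by number, since replicate differences in 5w2 and 3w2→2w100 went together (r = 0.760 across genes). They also entered the estimate of spread behind the call, which favours genes whose replicates lay close to each other here.

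Among genes higher in 5w2, the one with the largest called change was ENSRNOG00000039048. It was at 15.5 and 22.4 CPM in 5w2 and at 0.401 and 1.42 CPM in 5w100. The soft libraries were far above the stiff ones, with means of 19.0 ± 4.87 and 0.912 ± 0.723 CPM (SD, n = 2), a log2 fold change of 4.36 with an SE of 0.78 and an adjusted p of 0.0386 in edgeR. Leaving out 5w100 replicate 2 gave a log2 fold change of 5.54, and leaving out 5w100 replicate 1 gave 3.73. At 1 week the surfaces overlapped, with 5.35 to 13.5 CPM in 1w2 and 6.68 to 12.8 CPM in 1w100. At 3 weeks they no longer did, with 6.35 to 28.5 CPM in 3w2 and 1.93 to 3.92 CPM in 3w100. The gene was at 14.2 and 20.3 CPM in 3w2→2w100 and at 0.487 and 1.59 CPM in 3w100→2w2.

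The soft-side gene with the lowest adjusted p under the block was ENSRNOG00000007319, a more abundant gene with a smaller difference. Its level was 158 and 171 CPM in 5w2 and 80.5 and 77.7 CPM in 5w100, so that replicates lay close to each other and the groups far apart. The log2 fold change was 1.06 with an SE of 0.15, and the adjusted p was 0.0146 in edgeR. With the block the adjusted p in edgeR was 0.00206 over all 20 libraries and 0.0125 on the 8 five-week libraries. On the soft surface its mean was 122 ± 14.2 CPM in 1w2 and 132 ± 24.9 CPM in 3w2 (SD, n = 3). On the stiff surface it was 112 ± 6.23 CPM in 1w100 and 109.8 ± 11.7 CPM in 3w100, both above the 5w100 libraries.

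On the stiff side, ENSRNOG00000018254 had the largest fitted change among called genes, a rank that depends on the prior at counts of 0. Among called stiff-side genes with counts in 5w2, the largest fold change was 54.7. ENSRNOG00000018254 had 0 counts in both 5w2 libraries and 25 and 17 counts in 5w100. Taking 3 counts over the 5w2 group as the limit that a count of 0 allows, it was at least 17.3-fold higher in 5w100, with an adjusted p of 0.0336 in edgeR. With the block the adjusted p in edgeR was 0.0168 over all 20 libraries and 0.0378 on the 8 five-week libraries. In DESeq2 with the block on only 5w2 and 5w100 the adjusted p was 0.0668, where the call did not hold. It is a gene of low level throughout, at 0.233 to 0.514 CPM in 1w2, 0.1001 to 0.363 CPM in 1w100, 0.0640 to 0.376 CPM in 3w2 and 0.289 to 0.742 CPM in 3w100. In the switched cultures it had 1 and 0 counts in 3w2→2w100 and 40 and 18 counts in 3w100→2w2.

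ENSRNOG00000007370 was the stiff-side gene with the lowest adjusted p under the block. It was at 1.21 and 0.766 CPM in 5w2 and at 7.21 and 6.84 CPM in 5w100. The stiff libraries were higher, with a log2 fold change of -2.82 (5w2 minus 5w100, SE 0.39) and an adjusted p of 0.0146 in edgeR. With the block the adjusted p in edgeR was 0.00185 over all 20 libraries and 0.0119 on the 8 five-week libraries. At 1 week its means on the 2 surfaces were within their SD of each other. It was 11.2 ± 3.11 CPM in 1w2, 4.94 ± 2.00 CPM in 3w2 (SD, n = 3) and 0.987 ± 0.313 CPM in 5w2 (SD, n = 2), while on the stiff surface it was 11.8 ± 3.06, 9.82 ± 0.451 and 7.03 ± 0.263 CPM.

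Each of these 4 genes kept its direction when any one of the 4 libraries was left out. Since the 4 were named among genes without overlap between the groups, this was set by the choice. Their calls did not hold without 5w2 replicate 1, 5w2 replicate 2 or 5w100 replicate 2, where adjusted p in edgeR lay between 0.0679 and 0.254, nor in edgeR on only 5w2 and 5w100 (0.447 to 0.510) or on the 8 five-week libraries (0.0991 to 0.213). Without 5w100 replicate 1, ENSRNOG00000039048 had an adjusted p of 0.0557 and the other three genes stayed below 0.05, at 0.0259 to 0.0359. For the change of the surface difference from 1 to 5 weeks, the adjusted p of the 4 genes was 0.381 for ENSRNOG00000039048, 0.366 for ENSRNOG00000007319, 0.246 for ENSRNOG00000018254 and 0.134 for ENSRNOG00000007370.

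**Figure D5:**
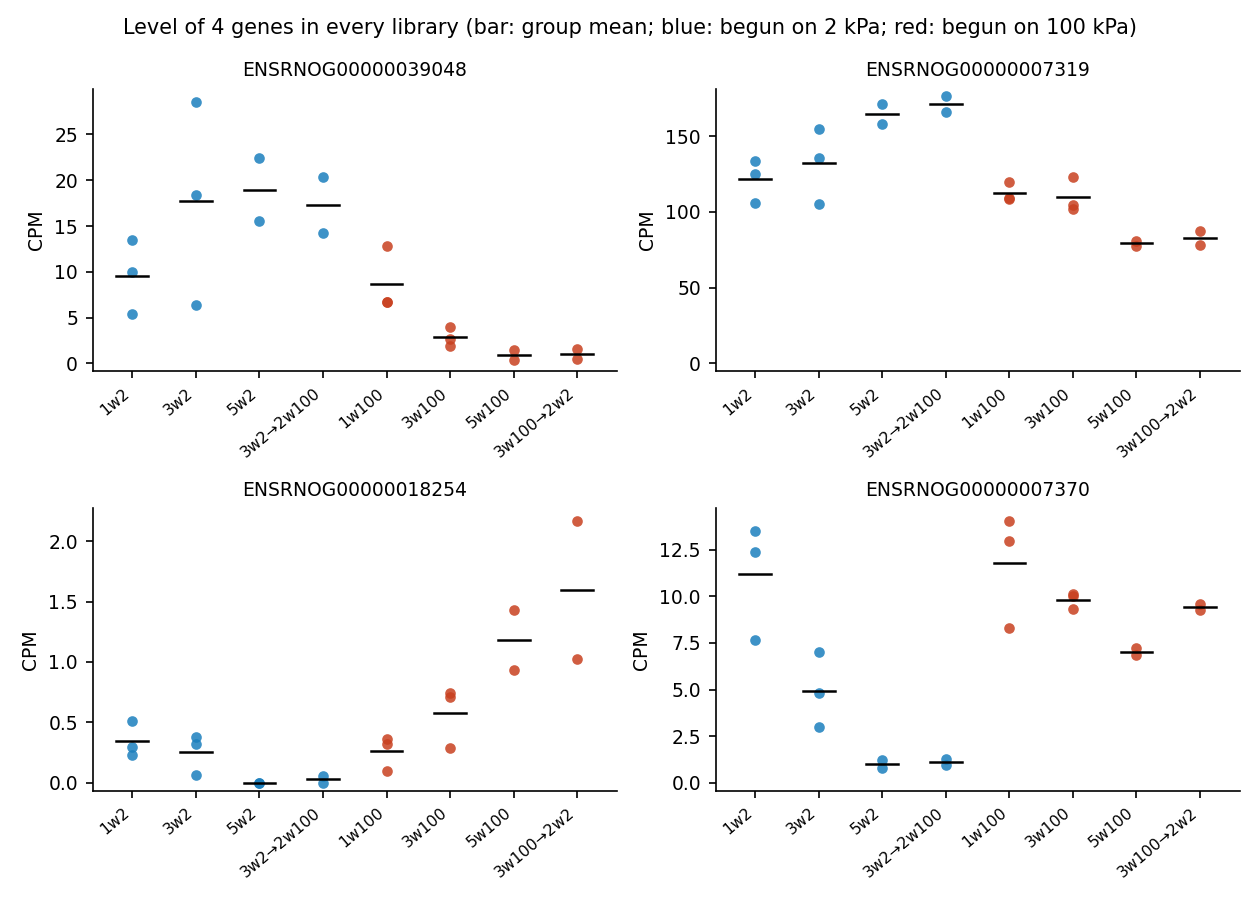
CPM of the 4 genes (vertical axes, each from 0) in every library of the 8 groups (horizontal axis), with bars at group means, cells begun on 2 kPa in blue and on 100 kPa in red. In all 4 panels the libraries of 5w2 and 5w100 do not overlap, and 3w2→2w100 lies near 5w2 and 3w100→2w2 near 5w100.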

How the data were processed

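Poly(A) RNA of rat bone marrow MSCs was sequenced in 20 libraries of 8 groups by a stranded mRNA kit. The values deposited by the authors are raw counts, 1 row per Ensembl identifier. Per the labels, reads were trimmed with Trim Galore, checked with FastQC, mapped to rn7 (mRatBN7.2) with HISAT2 and counted with featureCounts, and the authors tested with DESeq2. For these tools no version, strand setting or treatment of multi-mapping reads is given in the sources used here. Overlapping genes and close copies therefore have uncertain counts. The table holds 30560 rows, 0 of them without a gene, and 0 columns were left unused. Totals were 16127907 to 24139128 counts per library, and the limit of 3 counts behind a count of 0 covers counting error only.

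Groups and replicate numbers came from the labels and group names from the paper. The analysis used edgeR 4.0.16 in R 4.3.3. Low counts were removed by filterByExpr (minimum count 10, minimum total 15), libraries were scaled by TMM, and all 20 libraries entered 1 quasi-likelihood model with a term for each of the 8 groups and no block, with Benjamini-Hochberg adjusted p below 0.05 as the call over all 14034 tested genes. CPM use TMM factors, and log2 CPM a prior count of 2. Fold changes at counts of 0 depend on the prior and are given as bounds. Scripts were tested on simulated data. No 2 replicates agreed within sampling noise, so each was counted.

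Same-numbered 5-week libraries deviated together: replicate differences correlated across genes in all 6 pairs of 5-week groups (r = 0.168 to 0.802, and 0.178 between 5w2 and 5w100, above the limit of 0.1). Groups begun on the same surface had r = 0.760 and 0.802, and groups begun on different surfaces 0.168 to 0.245. The numbers were therefore taken to pair these libraries. The pairing comes from the data, not from a label, and values with the block stand beside the results they change.

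The comparison, gene lists and rule for named genes were chosen with earlier results of these data known. The rule took genes the paper names, the called genes of largest change whose libraries do not overlap, those of lowest adjusted p under the block, and members of 38 lists of symbols. Without symbols the first and last of these gave no gene, the lists and marker genes were not used, no sequence could be assigned, and only the first gene of each other kind is given in each direction. Groups followed over time or across pairs were formed after the values were seen. Alternatives were RLE factors, DESeq2 1.42.0, fits on fewer groups, other filters, the block, thinning to 16127907 counts, leaving out each library and unadjusted p.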

Additional observations from a re-analysis of the deposited data

How the results depend on the processing

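Counts of called genes depended on the test and on which libraries shared the estimate of spread. The genes tested also differed, since edgeR fits on other libraries were filtered anew and DESeq2 had no filter on low counts beforehand. Without the block, edgeR on only 5w2 and 5w100 called 0 genes (0 on either side, 1134 at an unadjusted p below 0.05), as it did on the 8 five-week libraries (1405). DESeq2 on all 8 groups called 592 (135 higher in 5w2 and 457 in 5w100), on only 5w2 and 5w100 273 (69 and 204), and there with the replicate block 383 (136 and 247). The replicate block in edgeR gave 498 (134 and 364) over all libraries and 290 (100 and 190) on the 8 five-week libraries, and the change from 1 to 5 weeks then had 1 gene. DESeq2 gave 36 genes for that change. Unadjusted p gave 2167 genes (840 and 1327), and 404 and 983 for the changes from 3 and from 1 week. Leaving out 1 library gave 0 to 313 called genes, 0 to 68 higher in 5w2 and 0 to 245 higher in 5w100. The lone library left was then taken to vary like the other groups, and the cause of these shifts was not tested. RLE factors (41 genes), no filter (46), a mean of at least 10 counts (40) and thinning (35) kept the count within 1.5 times, and RLE in place of TMM shifted the median over all genes by under 0.1 on the log2 scale.

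Each of the 4 named genes kept its direction in all alternatives run, which the choice of genes without overlap favours. Alternatives added after the values were seen (RLE factors, a prior count of 0.5, a mean of at least 10 counts, only 1-week replicates 1 and 2) moved 1 value of 18, the share of soft-side genes followed from replicates 1 to replicates 2, which was 40.3% with a mean of at least 10 counts. Alternatives for the gene lists were not run, since the lists could not be matched. ENSRNOG00000018254 did not pass the filter on a mean of 10 counts. What depth limits at each expression level was not tested.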
